A study of Rattus norvegicus with 12 samples.

Results

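The genes described here are 10 components of the Notch pathway, chosen by symbol from the 32545 genes of a rat RNA sequencing count table: the receptors Notch1, Notch2, Notch3 and Notch4, the ligands Jag1, Jag2 and Dll4, and the target genes Hes1, Hey1 and Hey2. All 10 were found, and 8 of them held enough counts to be tested, all but Hey1 and Dll4. The study compared 4 groups of 3 libraries each from cultured rat heart cells, stated by its design text to be biological replicates. RCF are wild type, untreated parental cardiac fibroblasts, the matrix-forming stromal cells of the heart, and serve as controls. GS are immortalized cells made from such fibroblasts by viral overexpression of Sall4, a zinc-finger regulator known from pluripotent cells, and Gata4, a transcription factor of heart and endoderm development, and were kept undifferentiated and untreated. GS_diff1 are GS cells in CMM medium, given as cardiomyocyte differentiation, and GS_diff2 are GS cells in CMM medium with EGM2 solution, given as cardiomyocyte and endothelial differentiation. All groups except RCF therefore carry both factors, and the factors cannot be told apart from immortalization. The labels give no strain, age, time in medium or clonal origin of the GS cells, so medium and time in culture cannot be told apart.

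Notch receptors are single-pass membrane proteins that are activated by ligands of the Jagged and Delta-like families on neighbouring cells. Ligand pulling exposes the receptor to ADAM proteases and then to gamma-secretase, and the freed intracellular domain enters the nucleus, joins the DNA-binding protein RBPJ and a Mastermind coactivator, and switches on Hes and Hey genes, which encode repressors of the basic helix-loop-helix class. In the heart the pathway is known for its part in valve formation, trabeculation, the endothelium and the coating of vessels with mural cells. The counts describe RNA only. They do not measure cleaved receptor or protein.

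Libraries held 16255682 to 23117864 counts, and levels are in CPM, counts scaled to library size with TMM composition factors, as mean ± SD with n = 3 libraries. Log2 fold changes are given ± standard error. Tests are edgeR's quasi-likelihood test with p adjusted over all tested genes, and a gene is called where adjusted p is under 0.05. Sall4 was at 0 CPM in the RCF libraries, 237 to 255 in GS, 222 to 231 in GS_diff1 and 67.5 to 72.4 in GS_diff2. Gata4 was already at 203 to 209.7 CPM in RCF. It was at 588 to 603 in GS, 487 to 499.9 in GS_diff1 and 281 to 289 in GS_diff2. Levels of both factors differed between the groups alongside the genes described here, and their part in the results was not tested. The fibroblast label was met by all 10 fibroblast markers in RCF, each at 1 CPM or more on average. At that level were also 9 of them in GS, 8 in GS_diff1 and 8 in GS_diff2, so it does not set RCF apart. RCF also held all 7 leukocyte markers at 1 CPM or more, with a sum of 55.3 to 55.9 CPM against 22.8 to 26.8 in GS, where Cd14 was most of the sum. The macrophage marker Adgre1 was at 14.3 CPM in RCF and 0 in every other group, and Cd68 had 14.4 CPM there against 0.784 in GS. The 8 epithelial and mesothelial markers summed to 43.7 to 46.4 CPM in RCF, mostly Wt1, and 631 to 652 in GS. From RCF to GS, mean Krt18 rose from 0 to 161 CPM and mean Cdh1 from 0.181 to 211 CPM. Means of Krt8, Krt19, Epcam and Msln rose too. Wt1 and Upk3b went the other way, falling from 37.2 to 7.00 CPM and from 3.54 to 0.509 CPM on average. These markers separate RCF from GS alongside the genes described here, and their part in the results was not tested. Of 9 matched endothelial markers, between 1 and 4 reached 1 CPM in a group, the sum lay between 14.8 and 29.1 CPM in every library, Emcn and Cldn5 held 0 counts throughout, and Cdh5 did not exceed a mean of 0.206 CPM. In bulk RNA, fewer cells of a type and less RNA per cell cannot be told apart. The share of counts on mitochondrial genes was 0.242% to 0.246% in GS, 1.49% to 1.698% in GS_diff1, 1.79% to 1.86% in GS_diff2 and 2.18% to 2.26% in RCF, and its part in the results was not tested.

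**Figure D1:**
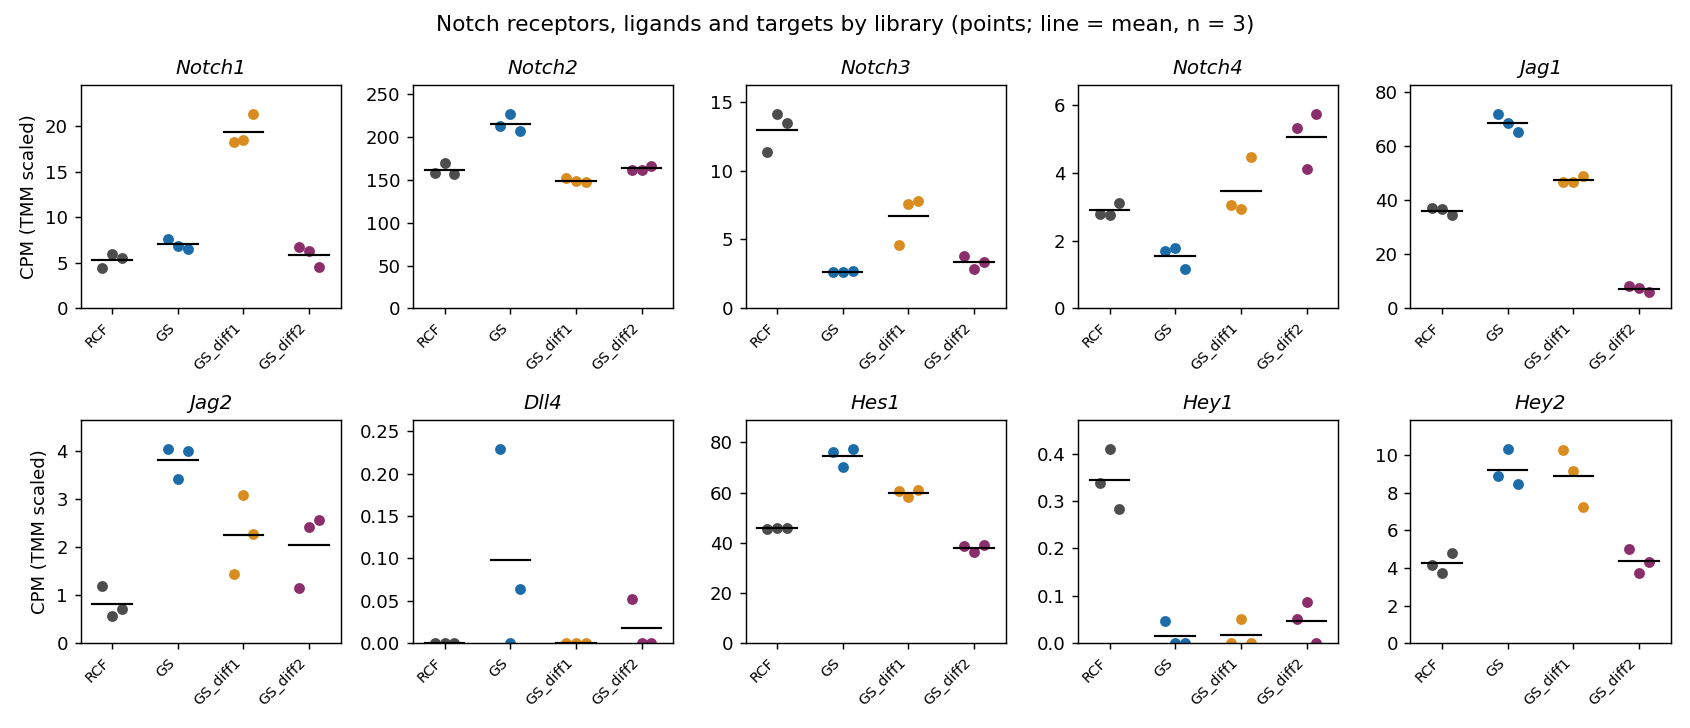
Level of each of the 10 genes in CPM (vertical axes, starting at 0 and scaled per gene) in every library of RCF, GS, GS_diff1 and GS_diff2. Points are libraries and lines are means of 3 libraries. Notch1 is highest in GS_diff1, Notch3 and Hey1 in RCF, Jag1 is lowest in GS_diff2, and Dll4 is at or near 0 throughout.

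Notch2 carried most of the receptor RNA in every group. Notch2 (ENSRNOG00000018835, Rnor_6.0 chromosome 2, 200187184 to 200317621, plus strand), a receptor with broad mesenchymal expression, stood at 157, 169 and 157 CPM in RCF, 213, 227 and 207 in GS, 152, 148 and 147 in GS_diff1 and 162, 162 and 166 in GS_diff2. The GS libraries lay above all others, and the other 3 groups lay close together. Notch2 was 1.34-fold higher in GS than in RCF (log2 0.42 ± 0.038, adjusted p = 4.9e-11), 1.45-fold lower in GS_diff1 than in GS (adjusted p = 3.75e-13) and 1.32-fold lower in GS_diff2 than in GS (adjusted p = 1.68e-10). From high to low the order was GS, GS_diff2, RCF and GS_diff1. GS_diff2 and RCF did not pass the test against each other (log2 0.02, 95% interval -0.06 to 0.10, adjusted p = 0.654). GS_diff1 was 1.08-fold lower than RCF (adjusted p = 0.0104), a call that ended without RCF replicate 2 (adjusted p = 0.105). Scaled to gene length, Notch2 was at 20.3 ± 0.886 CPM per kb in RCF and 27.2 ± 1.28 in GS, and it made up 88.0 ± 0.936%, 95.3 ± 0.290%, 84.4 ± 2.04% and 91.7 ± 0.767% of the summed length-scaled level of the 4 receptors in RCF, GS, GS_diff1 and GS_diff2.

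Notch1 stood apart in GS_diff1. Notch1 (ENSRNOG00000019322, chromosome 3, 3905453 to 3951025, minus strand), the receptor best known from endothelium, endocardium and blood cell development, was at 4.39, 6.0 and 5.49 CPM in RCF, 7.66, 6.82 and 6.56 in GS, 18.3, 18.4 and 21.3 in GS_diff1 and 6.74, 6.35 and 4.49 in GS_diff2. All 3 GS_diff1 libraries lay far above the other 9, whose levels were close to each other. Notch1 was 2.75-fold higher in GS_diff1 than in GS (log2 1.46 ± 0.16, adjusted p = 2.08e-09), 3.66-fold higher than in RCF (adjusted p = 7.64e-12), and 3.30-fold lower in GS_diff2 than in GS_diff1 (adjusted p = 7.45e-11). Its share of the length-scaled receptor level was 9.13 ± 0.697% in GS_diff1 and between 2.40% and 2.75% on average elsewhere. The higher Notch1 in GS than in RCF (1.33-fold, adjusted p = 0.0245) was a small difference whose call was lost when libraries were scaled by their totals alone (adjusted p = 0.0853), without GS replicate 1 (adjusted p = 0.0968) and without RCF replicate 1 (adjusted p = 0.14). Next in order, GS and GS_diff2 (log2 -0.26, 95% interval -0.59 to 0.07, adjusted p = 0.155) and GS_diff2 and RCF (log2 0.15, 95% interval -0.18 to 0.48, adjusted p = 0.41) did not pass the test. Summed markers of several cell types were also highest in GS_diff1, although each list held markers that were not. All 7 smooth muscle markers rose in GS_diff1 against GS, and their sum, mostly Acta2, Tagln and Smtn, was 2526 to 2576 CPM in GS_diff1, against 797 to 816 in RCF, 610 to 639.9 in GS and 399.7 to 405 in GS_diff2. Myh11, smooth muscle myosin, was not highest there: its means in RCF, GS, GS_diff1 and GS_diff2 were 4.53, 1.86, 3.38 and 4.13 CPM. The 8 epithelial and mesothelial markers, mostly Krt8, Krt18 and Cdh1, summed to 2270 to 2293 CPM in GS_diff1. Their sum was 631 to 652 CPM in GS and 802 to 821 in GS_diff2. Msln was highest in GS_diff2 (99.2 against 7.58 CPM in GS_diff1), Krt19 in GS, and Wt1 and Upk3b in RCF. The 8 cardiomyocyte markers summed to 102 to 109 CPM in GS_diff1, 17.0 to 22.8 in GS and 58.3 to 64.2 in GS_diff2. Mybpc3, at 95.6 CPM, was most of the GS_diff1 sum, and Myh6, Myh7 and Actn2 were also highest there. Tnnt2, Tnni3 and Ryr2 were highest in GS_diff2, at 34.1, 1.84 and 0.770 CPM against 7.66, 0.402 and 0.232 in GS_diff1. The endothelial factor Erg was at 6.07 CPM in GS_diff1 and 1.51 in GS, and Tek and Tie1 were also highest in GS_diff1. Of the other endothelial markers, Vwf was highest in GS_diff2, at 3.65 CPM against 1.55 in GS_diff1. Cdh5 held 0 counts in GS_diff1, and Kdr and Esam, under 1 CPM, were highest in RCF. The part of these markers in the Notch1 result was not tested.

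Notch3 was the receptor that fell most in GS. Notch3 (ENSRNOG00000004346, chromosome 7, 14138495 to 14189688, minus strand), a receptor of vascular smooth muscle cells and pericytes, was at 11.4, 14.1 and 13.4 CPM in RCF, 2.61, 2.66 and 2.70 in GS, 4.61, 7.61 and 7.82 in GS_diff1 and 3.78, 2.85 and 3.39 in GS_diff2. No library of a GS-derived group reached the lowest RCF library. Against RCF, Notch3 was 4.87-fold lower in GS (log2 -2.28 ± 0.20, adjusted p = 1.72e-11). It was 2.51-fold higher in GS_diff1 than in GS (adjusted p = 1.04e-06), while still 1.94-fold below RCF (adjusted p = 3.04e-05). GS_diff2 was 3.88-fold below RCF (adjusted p = 2.46e-10) and was not separated from GS by the test, although its libraries lay above the GS libraries (log2 0.33, 95% interval -0.09 to 0.74, adjusted p = 0.16). Its length-scaled share of the receptors was 7.67 ± 0.614% in RCF and 1.28 ± 0.0698% in GS. Of the 6 pericyte markers, Kcnj8 fell with Notch3 in GS against RCF (15.1 to 1.86 CPM, adjusted p = 7.43e-15), while Cspg4 (38.7 to 228 CPM) and Abcc9 (11.9 to 19.3 CPM) rose (adjusted p = 2.34e-27 and 1.65e-06). Des, at 1.03 and 0.509 CPM, did not pass the test (adjusted p = 0.061), and Higd1b stayed under 1 CPM in every group, as did Rgs5, with 3 counts over RCF and 0 elsewhere. In GS_diff1 against GS, where Notch3 rose, Cspg4, Abcc9, Kcnj8 and Des all fell. The summed level of the pericyte markers, most of it Cspg4, was 65.4 to 68.0 CPM in RCF and 239 to 258 in GS. It was 143 to 154 CPM in GS_diff1 and 369.6 to 409 in GS_diff2. Of the smooth muscle markers, Acta2, Tagln and Myh11 fell with Notch3 in GS against RCF, while Cnn1, Myocd, Smtn and Lmod1 rose. All of them rose with Notch3 in GS_diff1 against GS. The part of these markers in the Notch3 result was not tested.

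Notch4 was low in every group and lowest in GS. Notch4 (ENSRNOG00000000442, chromosome 20, 4329811 to 4353785, plus strand), a receptor known mainly from endothelial cells, was at 2.79, 2.77 and 3.12 CPM in RCF, 1.70, 1.79 and 1.16 in GS, 3.04, 2.92 and 4.46 in GS_diff1 and 5.34, 4.12 and 5.74 in GS_diff2. These levels rest on 18 to 110 counts per library. Against RCF, Notch4 was 1.85-fold lower in GS (log2 -0.89 ± 0.26, adjusted p = 0.00315), 2.22-fold higher in GS_diff1 than in GS (adjusted p = 0.000297) and 3.24-fold higher in GS_diff2 than in GS (log2 1.70 ± 0.26, adjusted p = 1.08e-06). GS_diff2 also exceeded RCF, by 1.75-fold (adjusted p = 0.00404), and GS_diff1 and RCF were not separated (log2 0.26, 95% interval -0.24 to 0.76, adjusted p = 0.342). The libraries of GS_diff2 and GS_diff1 overlapped, and their difference lay at the threshold (log2 0.54, 95% interval 0.05 to 1.04, adjusted p = 0.0501). In the deposited table the interval of C4a, a complement gene on the minus strand, covers all 23975 bases of Notch4. Mean C4a levels in RCF, GS, GS_diff1 and GS_diff2 were 9.27, 3.31, 1.22 and 2.14 CPM. It went in the direction of Notch4 in 2 comparisons, 2.79-fold lower in GS against RCF (adjusted p = 9.9e-07) and 1.74-fold higher in GS_diff2 than in GS_diff1 (adjusted p = 0.00651), and against it in the other 2, 2.703-fold lower in GS_diff1 (adjusted p = 9.52e-06) and 1.55-fold lower in GS_diff2 (adjusted p = 0.0196) than in GS. Without strand information, reads of the 2 genes cannot be told apart where their exons overlap.

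**Figure D2:**
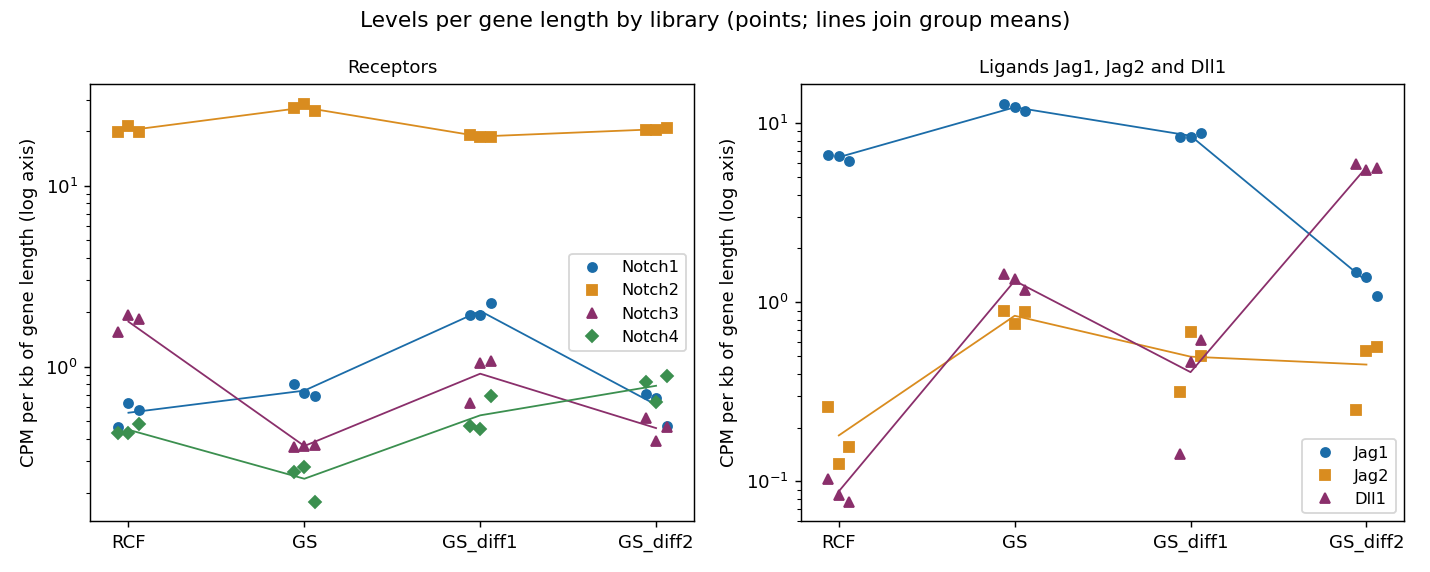
Level per gene length in CPM per kb (vertical log axes) of the 4 receptors (left) and of the ligands Jag1, Jag2 and Dll1 (right) in the libraries of each group. Points are libraries and lines join the means of 3 libraries. Notch2 lies above the other receptors in every library, and Dll1 lies above Jag1 in GS_diff2 only.

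Among the ligands, Jag1 fell steeply in GS_diff2. Jag1 (ENSRNOG00000007443, chromosome 3, 130079361 to 130114770, minus strand), the Jagged ligand needed for heart, bile duct and vessel development, was at 37.1, 36.6 and 34.4 CPM in RCF, 71.8, 68.4 and 65.1 in GS, 46.8, 46.6 and 49.0 in GS_diff1 and 8.19, 7.70 and 6.06 in GS_diff2. The 4 groups did not overlap at any point. Jag1 was 1.90-fold higher in GS than in RCF (log2 0.93 ± 0.070, adjusted p = 6.95e-13), 1.44-fold lower in GS_diff1 than in GS (adjusted p = 8.76e-08) and 9.34-fold lower in GS_diff2 than in GS (log2 -3.22 ± 0.084, adjusted p = 2.3e-24). GS_diff2 was also 6.47-fold below GS_diff1 (adjusted p = 3.53e-22) and 4.91-fold below RCF (adjusted p = 1.2e-20). The order of groups was GS, GS_diff1, RCF and GS_diff2, and every neighbouring pair in it passed the test, GS_diff1 against RCF with 1.32-fold (adjusted p = 1.02e-05).

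Jag2 (ENSRNOG00000013927, chromosome 6, 137711155 to 137733026, minus strand), the other Jagged ligand, was scarce, with 11 to 88 counts per library. It was at 1.18, 0.564 and 0.709 CPM in RCF, 4.04, 3.41 and 3.99 in GS, 1.43, 3.07 and 2.26 in GS_diff1 and 1.14, 2.41 and 2.56 in GS_diff2. The GS libraries were the highest, and the 2 media overlapped. GS_diff2 also overlapped RCF, with GS_diff2 replicate 1 below RCF replicate 1. Jag2 was 4.59-fold higher in GS than in RCF (log2 2.20 ± 0.36, adjusted p = 2.83e-06), and GS_diff1 (2.71-fold, adjusted p = 0.000692) and GS_diff2 (2.46-fold, adjusted p = 0.00202) were higher than RCF as well. Jag2 was 1.69-fold lower in GS_diff1 than in GS (adjusted p = 0.0457). That call was lost when libraries were scaled by their totals alone (adjusted p = 0.0664) and without GS replicate 1, 2 or 3 (adjusted p = 0.109, 0.0533 and 0.094) or GS_diff1 replicate 1 or 3 (adjusted p = 0.21 and 0.0848). It was 1.87-fold lower in GS_diff2 than in GS (adjusted p = 0.0181), a call that ended without GS replicate 1 (adjusted p = 0.053) or GS_diff2 replicate 1 (adjusted p = 0.116). GS_diff2 and GS_diff1 were not separated (log2 -0.14, 95% interval -0.83 to 0.55, adjusted p = 0.738).

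Dll4 (ENSRNOG00000014011, chromosome 3, 111135021 to 111145986, plus strand), the Delta-like ligand of arterial and sprouting endothelium, was close to absent from the counts. It held 0 counts in each RCF library, 5, 0 and 1 in GS, 0 in each GS_diff1 library and 1, 0 and 0 in GS_diff2. A count of 0 over the 62659852 counts of RCF allows up to 0.0479 CPM, and over the 58132609 counts of GS_diff1 up to 0.0516 CPM, with counting error only. No difference in Dll4 was detectable at this depth: with no filter on low counts, its smallest adjusted p among the 6 pairs of groups was 0.0893, for GS against RCF. Of the other canonical ligands, Dll1, a Delta-like ligand of somite and muscle progenitor cells, moved opposite to Jag1 in GS_diff2. Dll1 was at 0.380, 0.308 and 0.284 CPM in RCF, 5.27, 4.97 and 4.31 in GS, 0.523, 1.71 and 2.26 in GS_diff1 and 21.9, 20.2 and 20.6 in GS_diff2. It was 4.29-fold higher in GS_diff2 than in GS (log2 2.10 ± 0.28, adjusted p = 7e-06) and 3.29-fold lower in GS_diff1 than in GS (adjusted p = 0.00019). Per gene length, Dll1 was at 5.68 CPM per kb in GS_diff2, against 1.31 ± 0.201 for Jag1 and 0.449 ± 0.172 for Jag2, while in GS it was at 1.32 against 12.3 ± 0.602 for Jag1. Dll3, a divergent Delta-like protein, held 12 to 28 counts per group and did not pass the test in any of the 6 pairs of groups.

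Hes1 was the most abundant target gene and took the same order of groups as Jag1. Hes1 (ENSRNOG00000001720, chromosome 11, 74312806 to 74315248, minus strand), the repressor most often used to read Notch activity, was at 45.5, 45.8 and 45.8 CPM in RCF, 76.3, 70.1 and 77.5 in GS, 60.5, 58.3 and 61.2 in GS_diff1 and 38.8, 36.2 and 38.9 in GS_diff2. No 2 groups overlapped. Hes1 was 1.63-fold higher in GS than in RCF (log2 0.71 ± 0.055, adjusted p = 1.61e-12), 1.24-fold lower in GS_diff1 than in GS (adjusted p = 1.04e-05), 1.97-fold lower in GS_diff2 than in GS (log2 -0.98 ± 0.056, adjusted p = 1.46e-15) and 1.58-fold lower in GS_diff2 than in GS_diff1 (adjusted p = 1.63e-11). GS_diff1 remained 1.31-fold above RCF (adjusted p = 2.56e-07), and GS_diff2 was 1.204-fold below it (adjusted p = 0.000126). Per gene length Hes1 was at 31.7 ± 0.126 CPM per kb in RCF and 51.7 ± 2.72 in GS, and it made up between 92.6% and 94.2% of the summed length-scaled level of the 3 target genes on average in every group.

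Hey2 followed GS and GS_diff1 against RCF and GS_diff2. Hey2 (ENSRNOG00000013364, chromosome 1, 29191192 to 29201531, plus strand), a repressor of ventricular myocardium and arterial cells, was at 4.18, 3.74 and 4.82 CPM in RCF, 8.90, 10.4 and 8.49 in GS, 10.3, 9.17 and 7.24 in GS_diff1 and 5.03, 3.72 and 4.33 in GS_diff2. The libraries formed a higher and a lower range that did not meet. Hey2 was 2.17-fold higher in GS than in RCF (log2 1.12 ± 0.18, adjusted p = 2.16e-06), 2.12-fold lower in GS_diff2 than in GS (log2 -1.09 ± 0.18, adjusted p = 4.08e-06) and 2.04-fold lower in GS_diff2 than in GS_diff1 (adjusted p = 9.32e-06). Within each range the pairs were not separated: GS_diff1 against GS gave log2 -0.05 (95% interval -0.41 to 0.30, adjusted p = 0.805) and GS_diff2 against RCF gave log2 0.03 (95% interval -0.34 to 0.41, adjusted p = 0.876). The comparisons with GS share the GS libraries, so the higher values of Jag1, Hes1 and Hey2 against RCF and the lower ones in GS_diff2 are not independent of each other.

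Hey1 (ENSRNOG00000011593, chromosome 2, 95320283 to 95322696, plus strand), a related repressor of atrial myocardium and endothelium, held 8, 8 and 6 counts in RCF, 1, 0 and 0 in GS, 0, 1 and 0 in GS_diff1 and 1, 2 and 0 in GS_diff2. Every RCF library lay above every other library. Summed over libraries, Hey1 was at 0.351 CPM in RCF and 0.0175 CPM in GS, 20.01-fold lower with a 95% exact counting interval of 3.24 to 826, which covers counting error only. The gene was too low for the main test. With no filter on low counts it was lower in GS (adjusted p = 0.0182, where 51.8% of 20614 genes were called) and in GS_diff1 (adjusted p = 0.0152, where 54.9% were) than in RCF, and GS_diff2 missed the threshold (adjusted p = 0.062, where 52.8% were). Heyl, a further gene of this family named after its values were seen, held 25 to 40 counts in the RCF libraries, 9 to 13 in GS, 4 to 6 in GS_diff1 and 0 in each GS_diff2 library. Against a floor of 3 counts over the group, Heyl was at least 11.99-fold lower in GS_diff2 than in GS. The edgeR test, which does not use this floor, gave adjusted p = 2.82e-06 for this gene picked with its values known.

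The promoters of Hes1 and Hey2 are shown because both target genes were higher in GS than in RCF and lower in GS_diff2 than in GS. The sequences are the 250 bases before the RefSeq transcription start in build GRCr8, not the build of the counts, and run 5′ to 3′ on the gene's strand. Capitals mark TGGGAA, the core of the motif bound by RBPJ, or its reverse complement TTCCCA. The Hes1 window is chr11:84213046-84213295 on the minus strand, and the Hey2 window is chr1:28640850-28641099 on the plus strand.
Hes1: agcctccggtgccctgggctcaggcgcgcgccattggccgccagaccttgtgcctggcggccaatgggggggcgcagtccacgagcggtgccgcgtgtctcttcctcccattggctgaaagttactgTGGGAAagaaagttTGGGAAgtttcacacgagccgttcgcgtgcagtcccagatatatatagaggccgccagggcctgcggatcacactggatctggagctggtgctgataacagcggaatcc
Hey2: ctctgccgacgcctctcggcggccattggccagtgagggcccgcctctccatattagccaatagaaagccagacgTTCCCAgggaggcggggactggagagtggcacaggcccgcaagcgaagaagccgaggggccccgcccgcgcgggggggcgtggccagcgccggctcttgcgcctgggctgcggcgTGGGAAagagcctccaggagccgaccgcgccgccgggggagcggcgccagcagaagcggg
Hes1 held TGGGAA 2 times on the gene's strand, beginning 123 and 109 bases before the start and 8 bases apart, and Hey2 held it once on each strand, beginning 175 and 60 bases before the start. One match in each promoter, at 123 and at 60 bases, is preceded by G and so also matches the longer GTGGGAA. Searched on both strands, 22.1% of 33469 rat promoter windows of this length held TGGGAA at least once and 2.71% at least 2 times, and 5.27% held GTGGGAA, which contains the shorter motif. Promoter entries matched 8 of the 10 genes by symbol. Of these, Notch4 was the only other one with TGGGAA in its window, and it also held it 2 times. Both Notch4 matches were on the opposite strand, at 246 and 93 bases before the start, and neither matched GTGGGAA. Unlike Hes1 and Hey2, Notch4 was lower in GS than in RCF and higher in GS_diff2 than in GS. Jag1, Jag2, Notch1, Notch2 and Notch3 had no match to these letters in their windows. A match is a description of sequence and not a measured binding site. Variants of the motif with other letters were not searched for, so the marked matches need not be the sites or pairs that RBPJ binds.

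**Figure D3:**
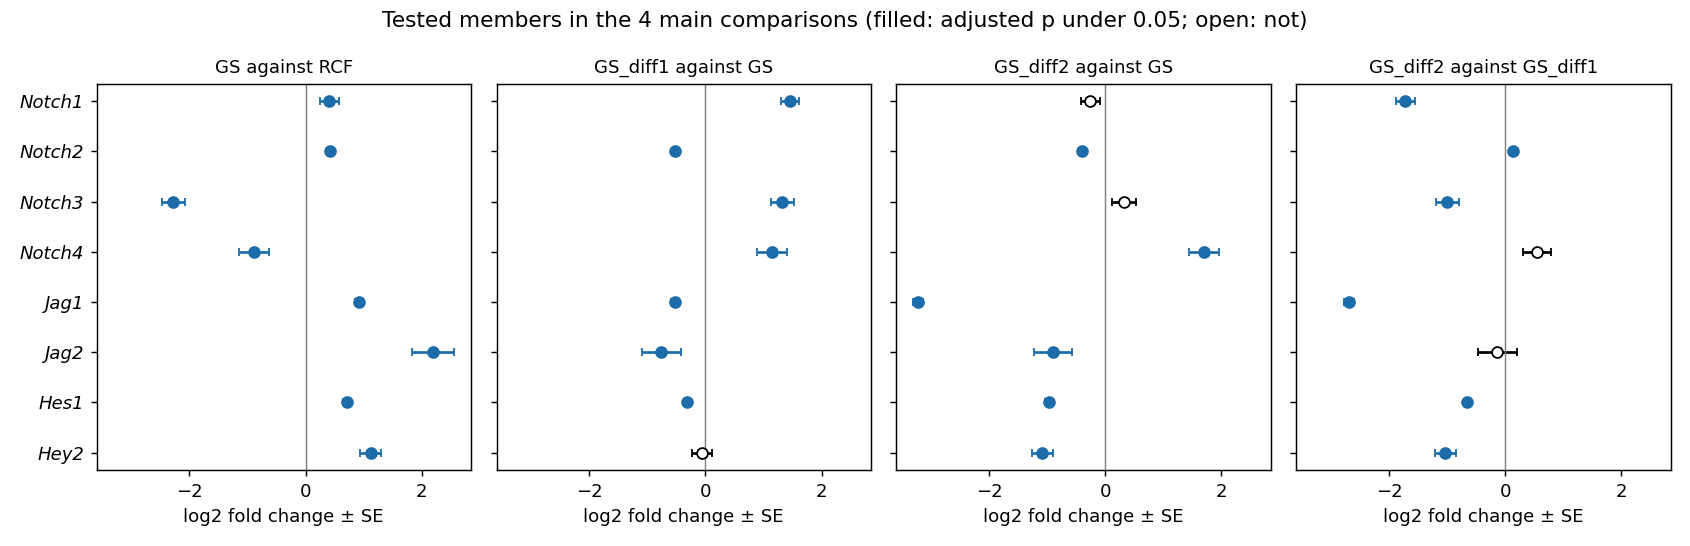
Log2 fold change (horizontal axes) with its standard error for the 8 tested genes in the 4 main comparisons, from edgeR. Filled points have an adjusted p under 0.05 and open points do not. Jag1 in GS_diff2 against GS, at -3.22, is the largest change of the plot.

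Most genes of these cells differed between groups, so each count of called genes is read against the share called among all tested genes. In GS against RCF, 8 of 8 were called, where 71.3% of the 14399 tested genes were, with 6 higher (35.0% of all tested genes) and 2 lower (36.3%). The 2 lower genes were Notch3 and Notch4. In GS_diff1 against GS, 7 of 8 were called against 64.3% of all (32.0% higher and 32.3% lower): Notch1, Notch3 and Notch4 rose, and Notch2, Jag1, Jag2 and Hes1 fell. In GS_diff2 against GS, 6 of 8 were called against 67.0% (33.3% higher and 33.7% lower), with Notch4 higher and Notch2, Jag1, Jag2, Hes1 and Hey2 lower. In GS_diff2 against GS_diff1, 6 of 8 were called against 63.7% (32.1% higher and 31.5% lower), with Notch2 higher and Notch1, Notch3, Jag1, Hes1 and Hey2 lower. The median log2 fold change of the 8 genes was 0.56 in GS against RCF, where that of all tested genes was -0.03, -0.18 in GS_diff1 against GS (all genes 0.00), -0.65 in GS_diff2 against GS (all genes 0.00) and -0.83 in GS_diff2 against GS_diff1 (all genes 0.00). Against RCF, 7 of 8 were called in GS_diff1, 5 higher and 2 lower, where 75.4% of all tested genes were (38.0% higher and 37.4% lower). In GS_diff2 against RCF 5 of 8 were called, 2 higher and 3 lower, where 72.5% were (37.1% higher and 35.4% lower).

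Other components of the pathway were read from a list of 75 genes sorted by role, of which 71 were found and 60 tested. In GS against RCF, 26 of the 60 were higher and 25 lower, 85.0% in all where 71.3% of all tested genes were called, with a median log2 fold change of -0.02. Rbpj, the DNA-binding effector, was 2.95-fold higher, at 435 ± 19.0 CPM against 148 ± 3.78, and its coactivator Maml1 was 2.09-fold higher (adjusted p = 7.29e-26 and 7.91e-17). Rbpjl, a relative of Rbpj that does not bind Notch, was 3.65-fold lower (adjusted p = 4.21e-08). Of 10 tested corepressor genes 5 were higher and 4 lower, with the Groucho-type corepressor Tle1 6.53-fold higher at 23.6 ± 2.34 CPM. Of 7 tested genes of receptor cleavage 1 was higher and 5 lower, where 35.0% of all tested genes were higher and 36.3% lower: the protease Adam10 was 2.21-fold lower (adjusted p = 2.53e-21) and the gamma-secretase subunit Psen2 2.14-fold higher (adjusted p = 1.23e-16).

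Further differences between GS and RCF concerned ligands and targets. Dll1 was 14.7-fold higher in GS (adjusted p = 2.04e-07). The non-canonical ligand gene Dner held 167 counts over the RCF libraries and 1 over GS, 152-fold lower with an exact 95% counting interval of 26.9 to 6036, and Ccn3 (listed as Nov), a matricellular protein reported to bind Notch, was 2.83-fold lower (adjusted p = 8.28e-28). All 6 genes of the list of other targets were higher, where 35.0% of all tested genes were, among them Snai2, a transcription factor of epithelial-mesenchymal transition, 7.70-fold, and the cyclin gene Ccnd1 6.09-fold, at 605 CPM against 99.4 (adjusted p = 5.51e-24 and 1.17e-34). These genes also respond to many other signals. Dtx4, of the Deltex family of ubiquitin ligases that act on Notch, was 5.78-fold lower (adjusted p = 6.21e-17).

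**Figure D4:**
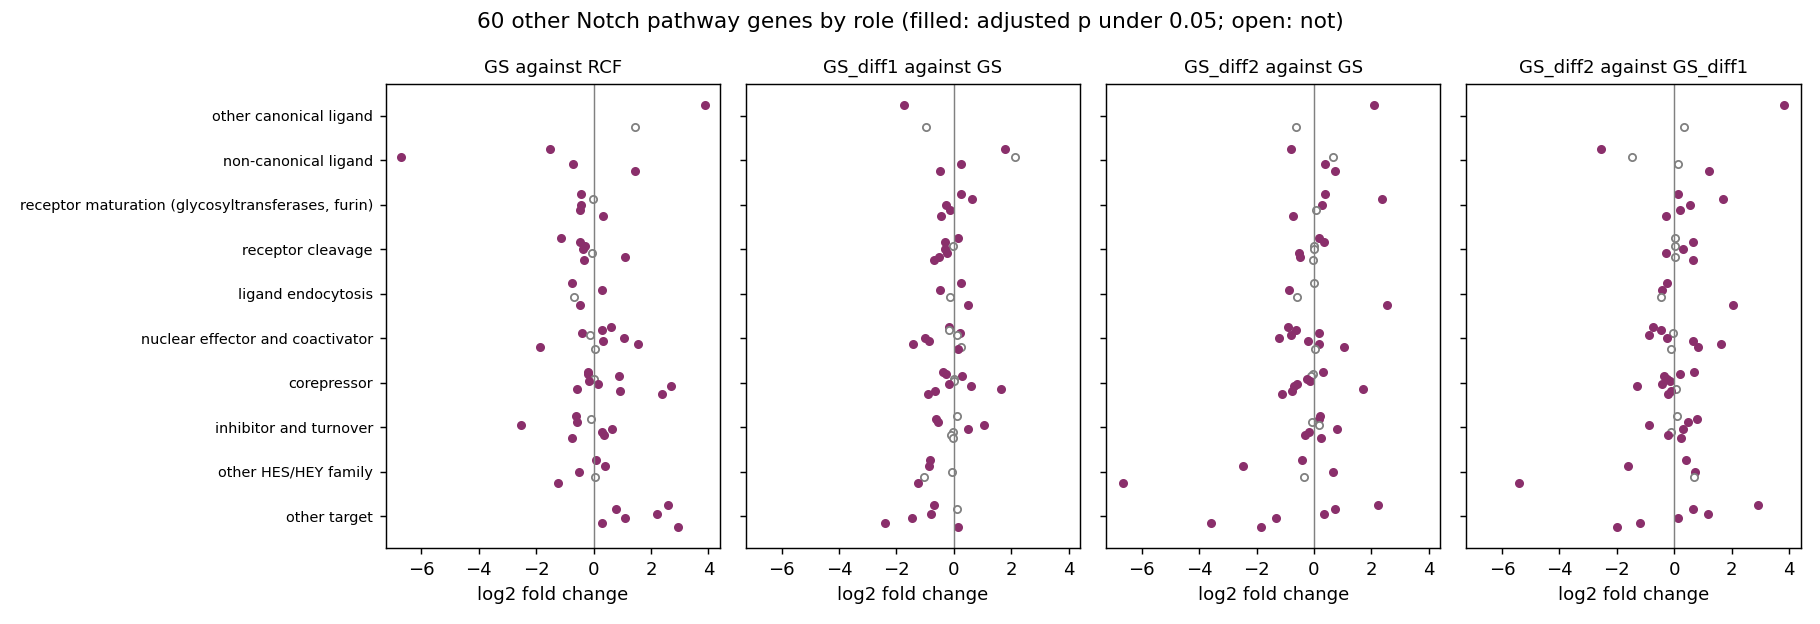
Log2 fold change (horizontal axes) of the 60 other tested pathway genes by role (rows) in the 4 main comparisons. Filled points have an adjusted p under 0.05 in edgeR and open points do not. The far left points are Dner in GS against RCF and Heyl in both comparisons of GS_diff2, where a group is at or near 0 counts and the fitted value is no bound.

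In GS_diff1 against GS, 15 of the 60 other pathway genes were higher and 29 lower, 73.3% in all where 64.3% of all tested genes were called, with a median log2 fold change of -0.17. Rbpj fell 2.69-fold to 162 ± 6.53 CPM (log2 -1.43 ± 0.036, adjusted p = 1.43e-24), and of the 9 tested genes of its group 2 were higher and 4 lower. Among the genes that rose were Ccn3 (3.41-fold), the corepressor Tle2 (3.15-fold), Dtx4 (2.07-fold) and Lfng (1.57-fold, adjusted p = 0.000429), a glycosyltransferase that changes which ligands a receptor answers to. Pdgfrb, a receptor of mural cells and fibroblasts, fell 5.27-fold and Myc 2.74-fold (adjusted p = 2.72e-32 and 2.31e-21). Cleavage genes were 1 higher and 5 lower of 7, where 32.0% of all tested genes were higher and 32.3% lower.

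In GS_diff2 against GS, 22 of the 60 were higher and 24 lower, 76.7% in all where 67.0% of all tested genes were called, with a median of -0.03, also with Heyl at its bound. Besides Dll1, Lfng rose 5.13-fold, from 4.45 ± 0.578 to 22.9 ± 0.573 CPM (adjusted p = 1.32e-14), and Neurl1b, a ubiquitin ligase of ligand endocytosis, rose 5.88-fold (adjusted p = 1.07e-14). Ccnd1 rose 4.73-fold to 2866 CPM (adjusted p = 4.4e-33). Pdgfrb fell 11.99-fold, Snai2 3.57-fold and Myc 2.48-fold, and Bhlhe41, a helix-loop-helix repressor of the circadian clock, fell 5.502-fold (adjusted p = 4.15e-36, 1.3e-19, 1.81e-20 and 2.49e-17). Rbpj was 1.14-fold higher than in GS (adjusted p = 1.21e-05), and Maml1 was 2.35-fold lower (adjusted p = 3.48e-18).

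Set against each other, the 2 media differed for 47 of the 60 genes, 25 higher and 22 lower in GS_diff2 (median log2 fold change 0.05). That is 78.3% of them, where 63.7% of all tested genes were called, 32.1% higher and 31.5% lower. In GS_diff2, Dll1 was 14.1-fold, Ccnd1 7.598-fold, Neurl1b 4.19-fold, Lfng 3.27-fold and Rbpj 3.07-fold higher than in GS_diff1 (adjusted p = 2.78e-08, 1.45e-35, 7.82e-13, 9.88e-12 and 4.98e-26). Ccn3 was 5.904-fold, Snai2 3.99-fold, Bhlhe41 3.03-fold and Tle1 2.43-fold lower (adjusted p = 7.24e-33, 1.64e-20, 1.04e-12 and 6.54e-12). The ligand Jag1 and the ligand Dll1 differed between the media in opposite directions.

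The genes whose profile lay closest to each of the 8 tested genes were found over the 12 libraries, by the root mean square difference of centred log2 CPM. Libraries of a group share their group, so this likeness is a description of 4 group levels. For Jag1, with a spread of its own of 1.23, the closest were Plxdc2 (0.156), C1qtnf7 (0.227) and Slc7a5 (0.256). Plxdc2 was at 48.4, 94.9, 55.8 and 10.1 CPM in RCF, GS, GS_diff1 and GS_diff2. For Hes1 they were Fem1c (0.0725), Tsku (0.0775) and Rai14 (0.0833), and for Hey2 they were Igsf10 (0.139), Usp36 (0.176) and Cdk14 (0.177). For Notch1 they were Samhd1 (0.191), Adk (0.235) and Tpm1 (0.237), a tropomyosin of the contractile cytoskeleton. For Notch3 they were Tgm2 (0.214), the pathway gene Dtx4 (0.2796) and Sipa1l2 (0.2803). Notch2 lay closest to Abca2, Rpl19 and Tbc1d15, Notch4 to AABR07069599.1, Crocc and Tubb6, and Jag2, the least closely matched, to Ror2, Chrd and Kcnn1 (0.395 to 0.402).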

How the data were processed

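RNA of 12 cultures was amplified into libraries; the kit was Ovation RNA-seq System v2 (labels' protocols). The authors deposited 1 table of whole-number read counts per gene, not normalized, with gene positions and lengths. Per the submitters' processing notes, the tool was Bowtie 0.12.2 and the builds listed are mm8 and Rnor_6.0, with no role for either; gene positions here are the table's own and are read as Rnor_6.0. The counting program, annotation release and strand setting were not given in the sources used here, so reads of overlapping genes cannot be separated.

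The genes and the lists were chosen with earlier results of these data known. Counts were scaled by TMM and tested in edgeR 4.0.16 (R 4.3.3): filterByExpr kept 14399 genes, and 1 quasi-likelihood fit of the 4 group means (8 residual degrees of freedom, robust) gave two-sided contrasts, with Benjamini-Hochberg adjustment over all tested genes and a threshold of 0.05. Intervals of 95% used the fit's standard errors, worked out from its F statistics. The fit was run on simulated data in which a small share of genes changed, in GS_diff2 only. Most genes differed in the real data, so that run does not test the fit under such conditions. Levels between genes were compared per kb of the deposited gene length. Alternatives were DESeq2 1.42.0, limma-voom (limma 3.58.1), other scalings, no filter, only the 2 groups, a replicate block and each replicate left out.

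Named pathway genes were, per main comparison, up to 4 called higher and 4 called lower with the largest changes, at least 1 CPM in the higher group and libraries that do not overlap. Other pathway genes in the text, such as Maml1, Adam10 and Psen2, were named for their role after their values were seen. Ccn3 was matched through its older name in a RefSeq table (GRCr8). Rbpj and the marker Smtn each have 2 rows, and the one with more counts was used. Aph1b, Maml3, Hdac1, Nrarp and the marker Pecam1 are not analysed here. Replicate pairs differed by 4.44 to 7.57 times the chi-square per degree of freedom that sampling noise gives, over genes with at least 50 counts in a pair.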

Additional observations from a re-analysis of the deposited data

How the results depend on the processing

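Of the counts of called genes in the 6 comparisons, for the 10 chosen genes and for the other pathway genes, none moved by over 1.5 times under any alternative run. Of 624 values of single genes under the alternatives, 598 kept their direction and side of the threshold, 12 lost the call, 7 gained it and 7 changed sign, all 7 of them uncalled. All 7 gains were Notch4 in GS_diff2 against GS_diff1, at log2 0.55 with DESeq2 size factors, 0.57 with library totals only, 0.54 with only the 2 groups, 0.56 with limma-voom, 0.55 with DESeq2, 0.76 without GS_diff1 replicate 3 and 0.68 without GS_diff2 replicate 2. The changes of sign were Hey2 in GS_diff1 against GS (log2 0.0068 with library totals only, and -0.17 to 0.072 with single replicates left out, above 0 without GS replicate 2 or GS_diff1 replicate 3), Jag2 in GS_diff2 against GS_diff1 (-0.39 to 0.15, above 0 without GS_diff1 replicate 2 or GS_diff2 replicate 1) and Hey2 in GS_diff2 against RCF (-0.080 to 0.14, below 0 without RCF replicate 2 or GS_diff2 replicate 1). The cause was not tested. Library totals as the only scaling moved the median log2 fold change of all genes in GS against RCF from -0.03 to -0.13.

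Replicate numbers are shared across groups, but nothing in the labels ties them to a shared animal or day. Same-numbered libraries deviated from their group means with correlations of -0.05 to 0.08 across genes, none of 18 over 0.1, and 6 of the 18 correlated best with their own number, so no pairing was assumed. With the replicate block, 8, 7, 6, 6, 7 and 5 of the chosen genes were called. The order is GS against RCF, GS_diff1 against GS, GS_diff2 against GS, GS_diff2 against GS_diff1, GS_diff1 against RCF and GS_diff2 against RCF. In the same order, that fit called 4986, 4545, 4739, 4567, 5429 and 5297 of all 14399 tested genes higher. It called 5180, 4590, 4800, 4487, 5338 and 5068 of them lower. Genes under about 100 counts per library, such as Notch4 and Jag2, had the widest errors, and Hey1 and Dll4 were limited by depth.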
